A study of Mus musculus with 6 samples.

Results

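Interferon response genes were followed in 3 lines of mouse endothelial cells that had been obtained from embryonic stem cells. The labels name each line by the cadherin it expresses: both VE-cadherin and N-cadherin (VE+N), VE-cadherin (VE) or N-cadherin (N). The group is a list of 35 gene symbols, and a member was measured where a probe set of the array carried that symbol and no other, which held for 33 of the 35 among 19936 genes. Ifi44 had no such probe set in the annotation used here, and the probe set of Gbp2 is shared with its near-identical neighbour Gbp2b. There were 2 whole-transcript arrays per line, and this number limits the precision. Cells of every line were plated at a density of 50000 per square centimetre, kept for 72 h and then held without serum for 18 to 20 h in medium with 1% albumin. No label names an interferon, a virus or another stimulus for any line. With 1 line for each cadherin state, the cadherins and other features of a line cannot be told apart, and whether a line is 1 clone is not given in the sources used here.

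Type I interferons bind the receptor chains Ifnar1 and Ifnar2 and, through the kinases Jak1 and Tyk2, activate a complex that contains Stat2 and Irf9 and binds the interferon-stimulated response element in promoters. The genes switched on in this way encode sensors of viral RNA, enzymes that destroy or edit RNA, blockers of translation and budding, and enzymes of ISG15 conjugation. Many of them are also transcribed at a low tonic level without infection, in endothelial cells as elsewhere, and their own products (Irf7, Irf9, Stat2) feed back on the pathway while Usp18 restrains the receptor.

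The promoters of 27 of the 35 members were in the RefSeq promoter table (GRCm38.p6), each window running from 250 bases before to 50 bases after a transcription start. The interferon-stimulated response element was searched as GAAANNGAAA on both strands, and the gamma-activated site as TTCNNNGAA, which reads the same on both strands. Of the 25 measured members with a window, 11 held the response element (44.0%), against 3.89% of the 15614 measured genes with a window, and 6 held the gamma-activated site (24.0%), against 8.99%. The windows of 4 members that held the response element and differed by over 1 log2 unit between lines are printed here in gene orientation, because they show the sequence that these genes share. They lie on chr12:26456403-26456702 (minus strand) for Rsad2, chr3:142559794-142560093 (plus strand) for Gbp3, chr2:62646206-62646505 (minus strand) for Ifih1 and chr5:92348840-92349139 (minus strand) for Cxcl10, and capitals mark the response element, which reads TTTCNNTTTC where it lies on the other strand.
Rsad2: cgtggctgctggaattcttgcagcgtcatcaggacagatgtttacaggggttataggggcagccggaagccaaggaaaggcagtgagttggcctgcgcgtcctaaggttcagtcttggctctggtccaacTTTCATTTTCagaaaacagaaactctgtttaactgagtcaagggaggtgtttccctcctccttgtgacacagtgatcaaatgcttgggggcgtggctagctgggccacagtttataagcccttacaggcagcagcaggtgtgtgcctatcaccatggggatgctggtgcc
Gbp3: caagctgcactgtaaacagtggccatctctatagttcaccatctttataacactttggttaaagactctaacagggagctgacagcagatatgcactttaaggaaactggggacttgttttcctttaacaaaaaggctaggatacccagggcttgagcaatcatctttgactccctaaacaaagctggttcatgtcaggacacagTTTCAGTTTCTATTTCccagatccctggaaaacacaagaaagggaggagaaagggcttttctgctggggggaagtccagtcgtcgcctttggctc
Ifih1: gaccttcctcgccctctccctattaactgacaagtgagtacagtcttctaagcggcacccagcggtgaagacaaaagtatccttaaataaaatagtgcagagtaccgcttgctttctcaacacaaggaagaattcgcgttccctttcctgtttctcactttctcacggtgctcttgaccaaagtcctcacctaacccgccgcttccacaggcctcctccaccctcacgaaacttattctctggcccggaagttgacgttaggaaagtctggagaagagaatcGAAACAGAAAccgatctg
Cxcl10: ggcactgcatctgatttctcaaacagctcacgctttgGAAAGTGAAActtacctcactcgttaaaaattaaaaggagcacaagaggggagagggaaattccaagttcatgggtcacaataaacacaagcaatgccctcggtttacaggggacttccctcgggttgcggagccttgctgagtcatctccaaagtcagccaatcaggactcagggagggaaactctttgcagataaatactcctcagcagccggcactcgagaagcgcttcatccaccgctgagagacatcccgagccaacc
The match began at position -120 from the start in Rsad2 and -213 in Cxcl10, while Gbp3 held overlapping matches at -45 and -39 and Ifih1 held its match after the start, at 33. Ifit1, Ifit3, Trim21 and Bst2 also held a pair of matches each, and the only overlap of the 2 motifs among the members was in Bst2. No match of either motif was found in the windows of Cmpk2, Oasl1, Oasl2 or Herc6, which says only that these letters are not in those windows.

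The cadherin genes were examined as a check of the labels. Mean log2 signal over 2 arrays of Cdh2 was 6.69 on the arrays labelled VE+N, 5.86 on those labelled VE and 7.67 on those labelled N, and that of Cdh5 was 7.10, 6.94 and 7.28 in the same order, with no difference in Cdh5 that passed the test. The VE-cadherin part of the labels is therefore not borne out by the Cdh5 probe set, and every direction below rests on the labels. Array medians over all probe sets were 4.85 to 4.91. Of the 33 members, 2 to 5 lay under the array's median, among them Irf7 and Mx1 in all 3 lines. The means of Oas2 and Oas3 lay under it in 2 lines, those labelled VE+N and VE. The differences of these genes therefore come from dim probe sets. Cmpk2 lay close to the median on the VE+N-labelled arrays, at 4.96 and 4.81. All 14 endothelial markers examined, Pecam1 and Kdr among them, lay above the median in each line. Replicates are labelled as biological and are separate RNA extractions, but nothing in the labels says that they came from separate cultures, so p-values measure the spread between these extracts.

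Against the N-labelled line, most interferon response genes were lower in the line labelled as expressing both cadherins. Of the 33 measured members 19 fell and 2 rose in VE+N minus N (limma, Benjamini-Hochberg adjusted p below 0.05 over all genes), beside 8.91% of all genes called lower and 10.2% called higher. The list was chosen with earlier results of these data known, so its shares beside those of all genes, here and below, describe the list and do not test it. Of the 19, 10 fell by more than 1 log2 unit, led by Cmpk2, a mitochondrial nucleotide kinase, by 2.65 ± 0.12 (SE), and Rsad2 (viperin), an antiviral radical enzyme, by 2.58 ± 0.13. The 2 that rose were Irf1, a transcription factor induced by interferon gamma and inflammatory cytokines, by 1.02 ± 0.12, and Samd9l, an antiviral restriction factor, by 0.85 ± 0.12. The median difference was -0.54 over the members and -0.00443 over all genes. Without N replicate 2 the count of falls was 12, and the 12 falls and 2 rises that passed with every array left out in turn were those of Cmpk2, Rsad2, Oasl1, Oasl2, Oas2, Gbp3, Usp18, Ifih1, Rtp4, Mx2, Herc6 and Ifit2 and those of Irf1 and Samd9l.

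The VE+N-labelled line was also the lower one against the VE-labelled line, for 13 of 33 members, and none was called higher. Among all genes 5.84% were called lower and 4.29% higher in VE+N minus VE. The limma count of 0 rises was also 0 at an unadjusted p below 0.05, where 18 members were lower. The methods' analysis of variance with Benjamini-Hochberg adjustment called 1 member, as lower. It called only 311 of 19936 genes in this comparison, so its count of 0 rises says little. The median over the members was -0.35, beside 0.03 over all genes. The count depended on the VE-labelled arrays: it was 5 without VE replicate 1 and 7 without VE replicate 2, and the 5 calls that held with every array left out were those of Cmpk2, Rsad2, Oasl2, Usp18 and the chemokine Cxcl10. Across the lines, 26 of the 33 members had their lowest mean in the VE+N-labelled line and 22 their highest in the N-labelled line, where the shares over all genes were 31.8% and 38.4%. The 3 comparisons share arrays, so they are not independent of each other.

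Between the VE-labelled and N-labelled lines the members split. In VE minus N 5 rose (8.46% of all genes did) and 5 fell (6.99% did), with a median of -0.24 beside -0.02 over all genes. Irf1 and Cxcl10 rose by 1.15 ± 0.12 and 1.13 ± 0.13, and Samd9l, Parp12 and Stat2 rose by less. Oasl1, Ifih1, Rsad2, Cmpk2 and Oas2 fell, by 0.96 at most. Calls of Irf1, Cxcl10, Oasl1, Ifih1 and Cmpk2 held with every array left out, while that of Rsad2 missed the threshold once VE replicate 1 was left out (adjusted p = 0.0502), and Oas2, Samd9l, Parp12 and Stat2 were each lost without 3 or 4 of the N-labelled and VE-labelled arrays. The count of rises was 2 without N replicate 1, VE replicate 1 or VE replicate 2 and 3 without N replicate 2, and the count of falls was 3 without VE replicate 1 and 9 without either VE+N array.

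**Figure D1:**
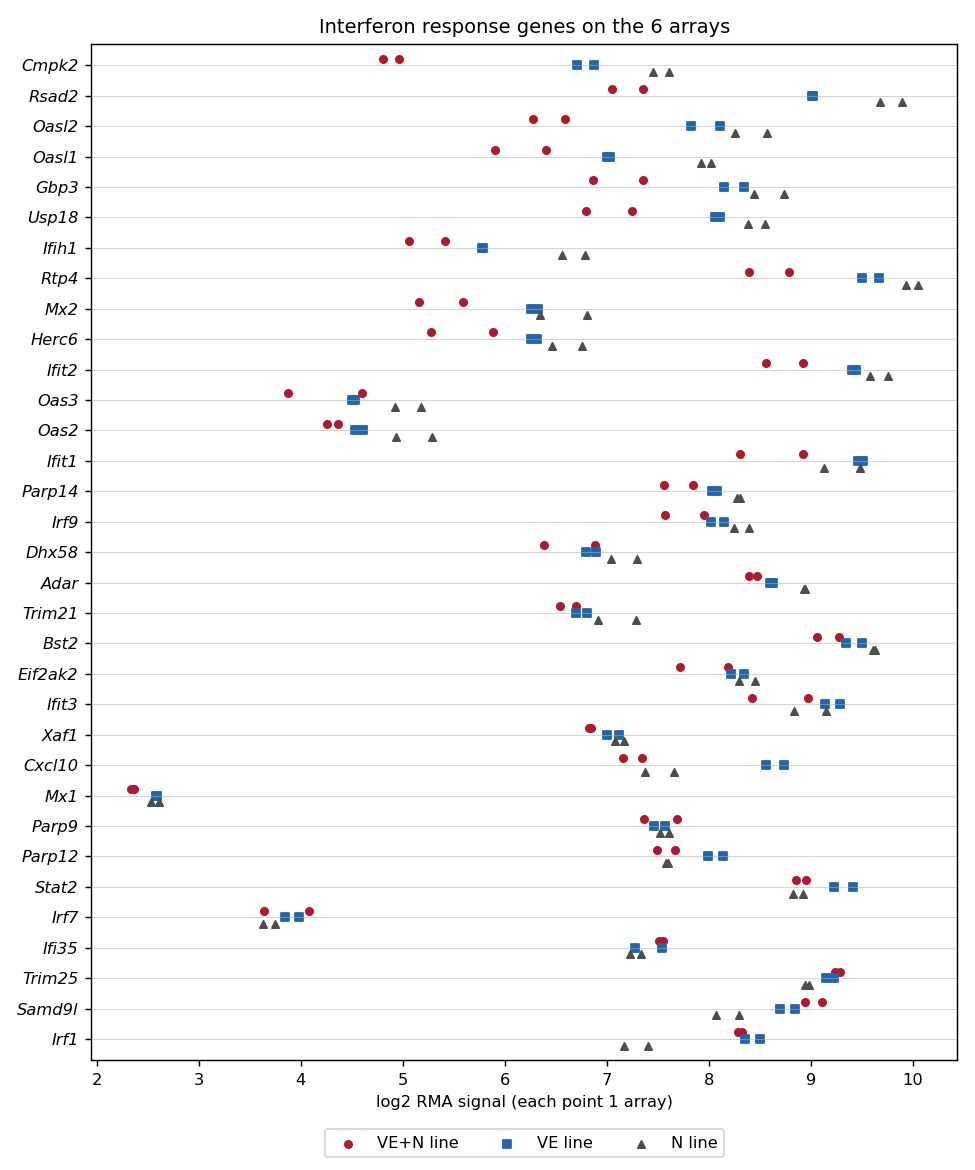
Log2 RMA signal (x axis) of the 33 measured interferon response genes (rows, ordered by the VE+N minus N difference), with 1 point per array: circles for the VE+N-labelled, squares for the VE-labelled and triangles for the N-labelled line. In the upper rows both VE+N-labelled arrays lie left of the other 4, as for Cmpk2 at 4.96 and 4.81, and in the bottom row, Irf1, the N-labelled arrays lie left at 7.17 and 7.40.

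**Figure D2:**
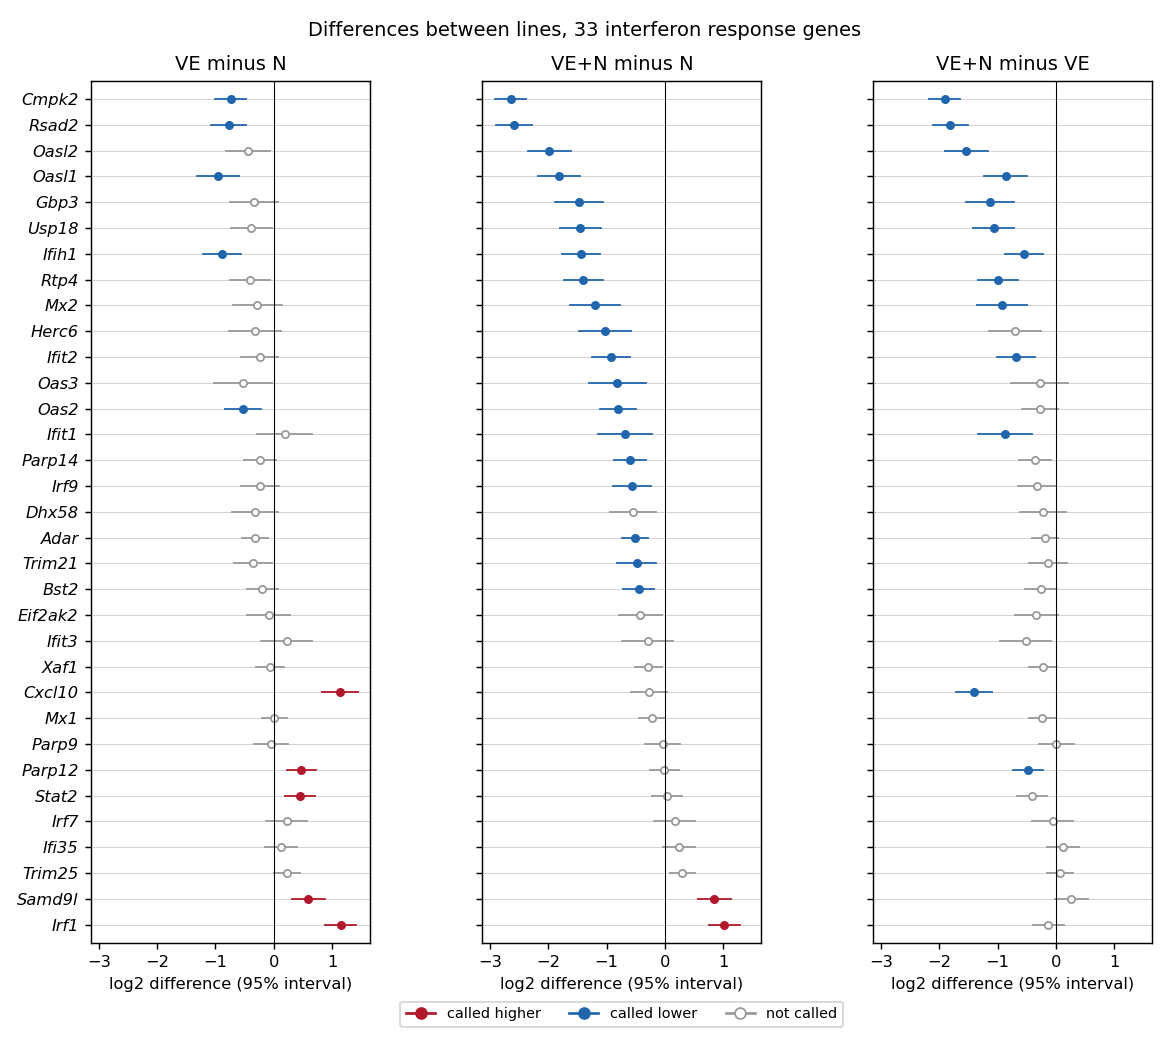
Log2 differences between lines (x axis, circle) with their 95% interval from limma (bar, not adjusted for the number of genes) for the same 33 genes in 3 comparisons, filled and coloured where the adjusted p was below 0.05. In VE+N minus N 19 genes lie to the left as calls and 2 to the right, in VE+N minus VE 13 to the left and 0 to the right, and in VE minus N 5 to each side.

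Cmpk2 and Rsad2 are neighbours on chromosome 12 and were the members with the largest differences. Cmpk2 had log2 signals of 4.96 and 4.81 on the arrays labelled VE+N, 6.87 and 6.70 on those labelled VE and 7.45 and 7.61 on those labelled N. Rsad2 gave 7.05 and 7.35 on the arrays labelled VE+N, 9.01 and 9.02 on those labelled VE and 9.68 and 9.90 on those labelled N. In both genes the 3 lines did not overlap and stood in the same order, and all 3 comparisons passed the test. Against N their falls came to 6.26-fold for Cmpk2 (adjusted p = 3.62e-06) and 5.99-fold for Rsad2 (adjusted p = 7.38e-06), on the scale of RMA signals. Against VE they fell by 1.90 ± 0.12 (adjusted p = 6.48e-05) and 1.81 ± 0.13 log2 units (adjusted p = 0.000142), and in VE minus N by 0.74 ± 0.12 and 0.77 ± 0.13 (adjusted p = 0.0037 and 0.00573, the call of Rsad2 being the one lost without VE replicate 1). Arrays of bulk RNA do not tell fewer expressing cells from less RNA per cell, here and below.

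The OAS family holds enzymes that make 2',5'-oligoadenylates, the activators of the nuclease RNase L, in Oas2 and Oas3, and relatives that in mouse include the translational repressor of Irf7, Oasl1, and Oasl2. All 4 fell in VE+N minus N. Oasl2 was measured at 6.28 and 6.59 on the arrays labelled VE+N, 8.11 and 7.82 on those labelled VE and 8.26 and 8.57 on those labelled N, a fall of 1.98 ± 0.16 against N (adjusted p = 9.58e-05) and of 1.53 ± 0.16 against VE (adjusted p = 0.000844). Its neighbour Oasl1 gave 6.40 and 5.91, then 7.03 and 7.00, then 7.93 and 8.02 in the same order of lines. The VE+N-labelled arrays lay below all others for both genes, but for Oasl1 the VE-labelled arrays also stood clear of the N-labelled ones, at -0.96 ± 0.16 (adjusted p = 0.00475), whereas for Oasl2 that difference was -0.44 ± 0.16 and did not pass (adjusted p = 0.116). Oasl1 fell by 1.82 ± 0.16 against N (adjusted p = 0.000132) and by 0.86 ± 0.16 against VE (adjusted p = 0.0112), the last being lost without VE replicate 1 or VE replicate 2. Oas2 and Oas3, with signals of 3.88 to 5.29 on the 6 arrays, differed by -0.80 ± 0.13 (adjusted p = 0.00416) and -0.81 ± 0.21 (adjusted p = 0.0331) against N. The VE+N-labelled arrays of Oas3 were far apart, at 4.60 and 3.88, and its call held only without VE+N replicate 1. Between the VE-labelled and N-labelled arrays both differed by -0.53, and Oas2 passed (adjusted p = 0.0314) where Oas3 did not (adjusted p = 0.155).

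Among sensors of double-stranded RNA, Ifih1 (MDA5), a cytosolic helicase, was measured at 5.06 and 5.42 on the arrays labelled VE+N, 5.77 and 5.79 on those labelled VE and 6.56 and 6.78 on those labelled N. The lines did not overlap, and it fell by 1.43 ± 0.14 in VE+N minus N (adjusted p = 0.000272) and by 0.89 ± 0.14 in VE minus N (adjusted p = 0.00411). The difference of VE+N from VE, -0.54 ± 0.14, passed narrowly (adjusted p = 0.0499) and was lost in 5 of the 6 fits with an array left out. Dhx58 (LGP2), which regulates the other helicases, differed by -0.54 ± 0.17 in VE+N minus N without passing (adjusted p = 0.0662). Eif2ak2 (PKR), which halts translation on binding double-stranded RNA, differed by -0.42 (adjusted p = 0.115), and Adar, which edits such RNA and keeps it from the sensors, fell by 0.51 ± 0.10 (adjusted p = 0.0077), a call lost without either N-labelled array.

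Of the genes of ISG15 conjugation and ubiquitin transfer, Usp18, the protease that removes ISG15 and blocks Ifnar2 signalling, had signals of 6.80 and 7.24 on the arrays labelled VE+N, 8.06 and 8.11 on those labelled VE and 8.39 and 8.55 on those labelled N. It fell by 1.45 ± 0.15 in VE+N minus N (adjusted p = 0.000359) and 1.06 ± 0.15 in VE+N minus VE (adjusted p = 0.00355), with no call in VE minus N at -0.39 (adjusted p = 0.143). Herc6, the mouse ISG15 ligase, was measured at 5.28 and 5.88 on the arrays labelled VE+N, 6.26 and 6.31 on those labelled VE and 6.46 and 6.75 on those labelled N. Both VE+N-labelled arrays lay below the other 4 for each gene, and Herc6 fell by 1.03 ± 0.19 against N (adjusted p = 0.00753) with -0.71 ± 0.19 against VE (adjusted p = 0.0594). Trim21, a cytosolic antibody receptor and ubiquitin ligase, passed against N at -0.48 (adjusted p = 0.0487), a call that held only without N replicate 1. Trim25, the ligase that activates the sensor RIG-I, lay at 0.30 ± 0.10 in the other direction (adjusted p = 0.0666).

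Large GTPases that act on viral or vacuolar membranes and capsids are represented by Gbp3, Mx1 and Mx2. Gbp3 had signals of 6.87 and 7.36 on the arrays labelled VE+N, 8.34 and 8.15 on those labelled VE and 8.45 and 8.73 on those labelled N. Mx2 gave 5.16 and 5.59, 6.33 and 6.26, and 6.35 and 6.80 in that order. For both, the VE+N-labelled arrays lay below all others, with falls of 1.48 ± 0.18 for Gbp3 (adjusted p = 0.000733) and 1.20 ± 0.18 for Mx2 (adjusted p = 0.00274) against N. Against VE they fell by 1.13 ± 0.18 (adjusted p = 0.00541) and 0.92 ± 0.18 (adjusted p = 0.0174), calls lost without VE replicate 1 in Gbp3 and without VE replicate 1, VE replicate 2 or VE+N replicate 1 in Mx2. Mx1 stayed between 2.33 and 2.61 on all arrays and was not called. The probe set shared by Gbp2 and Gbp2b differed by -0.33 in VE+N minus N (adjusted p = 0.157) and by -0.52 in VE+N minus VE (adjusted p = 0.0583).

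The IFIT genes, neighbours on chromosome 19 whose products bind viral RNA and translation factors, differed by less than 1 log2 unit in each comparison. Ifit2 gave 8.56 and 8.92 on the arrays labelled VE+N, 9.44 and 9.41 on those labelled VE and 9.58 and 9.76 on those labelled N, and fell by 0.93 ± 0.14 against N (adjusted p = 0.00238) and 0.68 ± 0.14 against VE (adjusted p = 0.0181, lost without either VE array or VE+N replicate 1). Ifit1 gave 8.31 and 8.92, 9.46 and 9.52, and 9.13 and 9.48 in that order. Its falls of 0.69 ± 0.20 against N (adjusted p = 0.0496) and 0.87 ± 0.20 against VE (adjusted p = 0.0315) were lost in 5 and 3 of the 6 fits with an array left out. Ifit3, whose probe set may also read a near-identical copy, was not called in any comparison, at -0.29 ± 0.19 against N, where the arrays overlapped, and -0.52 ± 0.19 against VE.

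The remaining falls against N were in Rtp4, a chaperone of membrane receptors induced by interferon, and in Parp14, Irf9 and Bst2. Rtp4 had signals of 8.40 and 8.79 on the arrays labelled VE+N, 9.67 and 9.50 on those labelled VE and 9.93 and 10.05 on those labelled N, and fell by 1.40 ± 0.15 against N (adjusted p = 0.000352) and by 0.99 ± 0.15 against VE (adjusted p = 0.00408, and 0.0505 without VE replicate 1). Its 3 lines stood apart without overlap. Parp14, an ADP-ribosyltransferase, fell by 0.59 ± 0.12, Irf9, the DNA-binding subunit of the interferon transcription complex, by 0.56 ± 0.14, and Bst2 (tetherin), which holds budding virions on the cell surface, by 0.45 ± 0.12. Without N replicate 1 or N replicate 2 these 3 calls were lost (highest adjusted p = 0.061 for Parp14, 0.153 for Irf9 and 0.141 for Bst2), and that of Irf9 also without VE replicate 1, VE replicate 2 or VE+N replicate 1 and that of Bst2 without VE+N replicate 2.

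From high to low, the order N, VE, VE+N of the line means held for 21 of the 33 members. The called members that stood in another order were Ifit1, given above, and Irf1, Samd9l, Cxcl10, Stat2 and Parp12. Irf1 was measured at 8.32 and 8.29 on the arrays labelled VE+N, 8.50 and 8.36 on those labelled VE and 7.17 and 7.40 on those labelled N. The N-labelled arrays were the low ones, with rises of 1.02 in VE+N minus N (adjusted p = 0.000572) and 1.15 in VE minus N (adjusted p = 0.000403), and VE+N minus VE was -0.13 with a 95% interval from -0.40 to 0.14. A second, dimmer probe set of Irf1 gave 5.55 and 5.40 under the label VE+N, 5.57 and 5.41 under VE, and 5.10 and 5.25 under N. With the mean of both probe sets the rises were smaller, at 0.66 against N for VE+N (adjusted p = 0.00496) and 0.73 for VE (adjusted p = 0.00372). Samd9l rose likewise, at 8.94 and 9.11 on the arrays labelled VE+N, 8.70 and 8.84 on those labelled VE and 8.07 and 8.29 on those labelled N. Its lines did not overlap, and it passed against N for VE+N (adjusted p = 0.00198) and, at 0.59 ± 0.12, for VE (adjusted p = 0.0144, lost without N replicate 1, VE replicate 1 or VE replicate 2). Cxcl10, a chemokine that draws T cells and is induced by both interferons and NF-kappaB, stood out in the VE-labelled line: 7.34 and 7.15 on the arrays labelled VE+N, 8.56 and 8.73 on those labelled VE and 7.38 and 7.66 on those labelled N. Only the VE-labelled arrays were high. It rose by 1.13 in VE minus N (adjusted p = 0.00092), fell by 1.40 ± 0.13 in VE+N minus VE (adjusted p = 0.000529) and differed by -0.27 ± 0.13 in VE+N minus N (adjusted p = 0.227). Stat2, a subunit of the interferon transcription complex, and Parp12, an ADP-ribosyltransferase that restrains viral translation, had the same shape at smaller size: they were higher in VE minus N by 0.44 ± 0.11 (adjusted p = 0.0306) and 0.48 ± 0.11 (adjusted p = 0.0234) and lay at 0.03 and -0.01 in VE+N minus N. Each of these VE minus N calls of Stat2 and Parp12 was lost without any 1 of the 4 arrays of the N-labelled and VE-labelled lines. Against VE, in the VE+N-labelled line Parp12 fell by 0.48 (adjusted p = 0.0302, held only without VE+N replicate 2) and Stat2 lay at -0.41 (adjusted p = 0.0557).

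The members called in no comparison numbered 9: Irf7, Ifit3, Mx1, Dhx58, Eif2ak2, Trim25, Parp9, Xaf1 and Ifi35. Parp9, the partner of the ubiquitin ligase Dtx3l, differed by -0.04 against N and 0.01 against VE in the VE+N-labelled line, with 95% intervals from -0.33 to 0.26 in VE+N minus N and from -0.29 to 0.30 in VE+N minus VE. Irf7, the factor that amplifies interferon production, lay between 3.63 and 4.08 on the 6 arrays, under the median probe set on each. Xaf1, an antagonist of the apoptosis inhibitor Xiap, lay at -0.29 (adjusted p = 0.0942) and Ifi35 at 0.25 (adjusted p = 0.206) against N. Of the 4 transcription factors in the list, then, 1 rose (Irf1) and 1 fell (Irf9) in VE+N minus N, beside 10.2% and 8.91% of all genes.

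**Figure D3:**
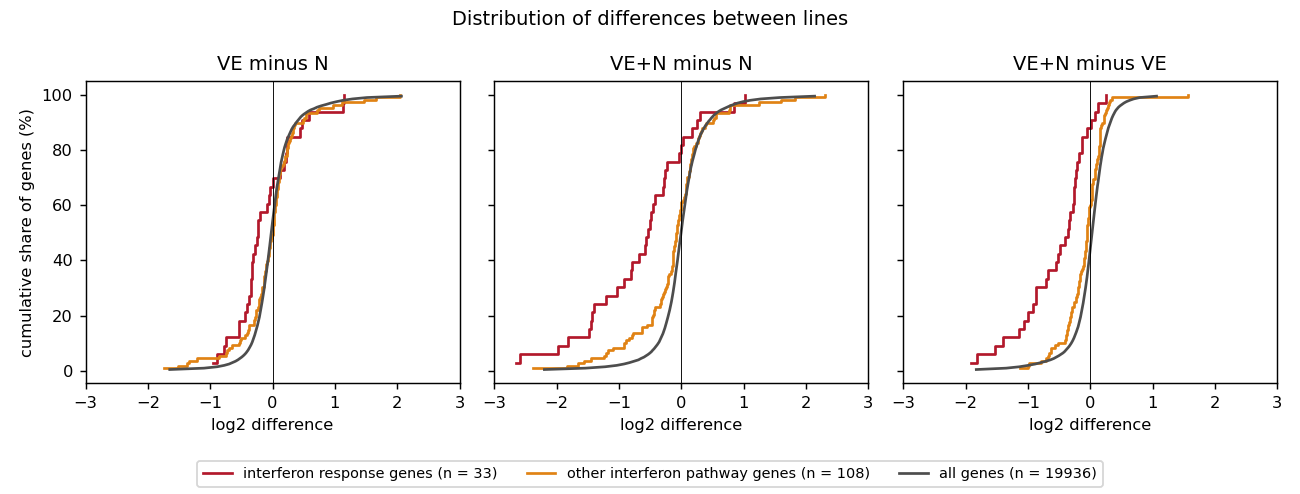
Cumulative share of genes (y axis, %) at or below a log2 difference (x axis) for the 33 interferon response genes, the 108 other interferon pathway genes and the 19936 genes tested, in 3 comparisons. The curve of the interferon response genes lies left of the others over most of its length where the VE+N-labelled line is compared, with medians against N and VE of -0.54 and -0.35. Medians of the other pathway genes were -0.08 and -0.05 in these comparisons, beside -0.00443 and 0.03 over all genes. In VE+N minus VE 65 of these 108 lay below 0, beside 8760 of the 19936 genes, and in VE+N minus N 66, beside 10148.

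In the VE+N-labelled and N-labelled lines most members shifted the same way between the 2 arrays. Replicate 2 gave the higher signal for 24 of 33 members on the arrays labelled VE+N, 14 of 33 on those labelled VE and 30 of 33 on those labelled N, while over all genes the share was 49.5%, 49.0% and 48.5%. The median of replicate 2 minus replicate 1 was 0.18 over the members on the arrays labelled VE+N, -0.03 on those labelled VE and 0.15 on those labelled N. The widest gap was that of Oas3 in the VE+N-labelled line, at -0.72. The members are therefore not independent readings of a line.

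**Figure D4:**
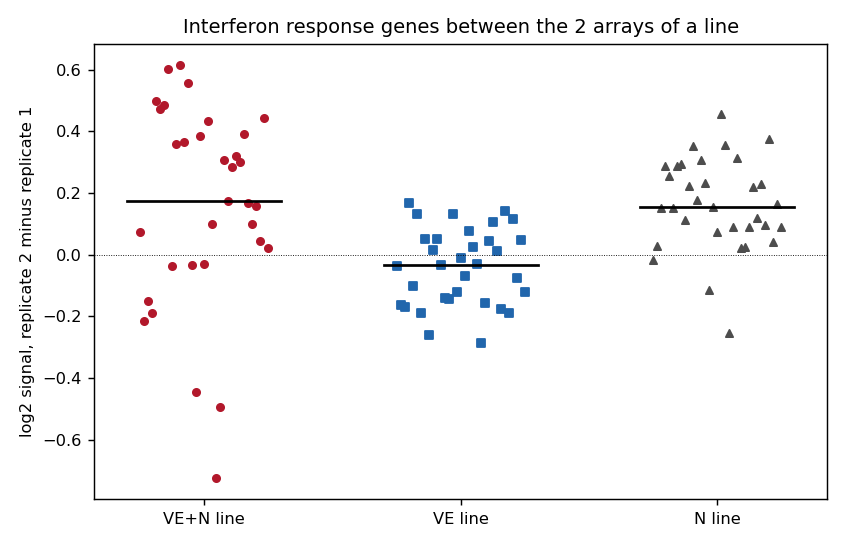
Log2 signal of replicate 2 minus replicate 1 (y axis) for each of the 33 interferon response genes (points, in alphabetical order within a line), with the median as a bar, in the VE+N-labelled, VE-labelled and N-labelled lines. Most points lie above 0 in the VE+N-labelled (24 of 33) and N-labelled (30 of 33) lines, and the median is -0.03 in the VE-labelled line.

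The rest of the pathway was examined in lists of 129 further genes, of which 108 were measured. In VE+N minus N 10 of these rose (9.26%, beside 10.2% of all genes) and 24 fell (22.2%, beside 8.91%). For VE+N against VE 1 rose (0.926%, beside 4.29%) and 7 fell (6.48%, beside 5.84%), and for VE against N 10 rose (9.26%, beside 8.46%) and 15 fell (13.9%, beside 6.99%). The shares of rises against N and of falls against VE were thus near those of all genes. The falls in VE+N minus N numbered 15 without N replicate 2. Those in VE+N minus VE numbered 3 without VE replicate 1 or VE replicate 2, and the rises there 4 without VE+N replicate 1. In VE minus N the falls numbered 9 without N replicate 2, VE replicate 1 or VE replicate 2, and the rises 6 without N replicate 1. No interferon ligand gene was called among 9 measured, the lowest unadjusted p being above 0.05 in every comparison with limma, and Ifnb1 lay at 3.07 ± 0.385 on the arrays labelled VE+N, 2.91 ± 0.0282 on those labelled VE and 2.93 ± 0.32 on those labelled N (SD, n = 2), under the median probe set.

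Of 14 receptor and signalling genes 2 rose (14.3%, beside 10.2% of all genes) and 3 fell (21.4%, beside 8.91%) in VE+N minus N. The kinase gene Jak2 rose by 0.53 ± 0.14 (adjusted p = 0.0375, held only without VE+N replicate 1) and Pias1, a SUMO ligase that restrains cytokine signalling, by 0.50 ± 0.10 (adjusted p = 0.0103, lost without N replicate 1 or N replicate 2). Socs3, an inhibitor of Jak kinases, fell the most, by 2.37 ± 0.12 (adjusted p = 7.08e-06), with means of 6.06 ± 0.189 on the arrays labelled VE+N, 7.06 ± 0.104 on those labelled VE and 8.44 ± 0.0082 on those labelled N (SD, n = 2). It was also lower with VE+N set against VE and with VE set against N, at -0.99 and -1.38. The interferon gamma receptor chain gene Ifngr2 fell by 0.84 ± 0.09 in VE+N minus N and 0.73 ± 0.09 in VE minus N. Ifnar1 fell by 0.45 and 0.53 in the same comparisons (adjusted p = 0.0276 and 0.0153), calls that were lost in both comparisons without any 1 array of the N-labelled and VE-labelled lines, and in VE+N minus N also without VE+N replicate 1. Ifnar2 was called nowhere, at -0.11 against N and 0.02 against VE for the VE+N-labelled line, and -0.13 in VE minus N.

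Among 15 sensors and adaptors 2 rose (13.3%, beside 10.2% of all genes) and 5 fell (33.3%, beside 8.91%) in VE+N minus N. Sting1, the adaptor of cytosolic DNA sensing, fell by 1.25 ± 0.10 (adjusted p = 8.58e-05), Aim2, a DNA sensor that forms an inflammasome, by 1.17 ± 0.13 (adjusted p = 0.000444), and Tlr3, an endosomal receptor of double-stranded RNA, by 0.63 ± 0.10 (adjusted p = 0.00279). Unc93b1, which carries nucleic acid receptors to endosomes, rose by 1.82 ± 0.10 (adjusted p = 1.2e-05) and Tbk1, the kinase that activates Irf3, by 0.78 ± 0.13 (adjusted p = 0.00355). Unc93b1 was also the only gene of these lists to rise in VE+N minus VE, by 1.57 ± 0.10 (adjusted p = 8.56e-05), where Sting1 fell by 0.39 (adjusted p = 0.0474), a call lost with any array left out. Of the other interferon regulatory factors Irf8 fell, by 0.78 ± 0.12 in VE+N minus N, and Irf3 was not called.

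Of 43 other antiviral effectors 4 rose in VE+N minus N (9.3%, near the 10.2% of all genes) and 11 fell (25.6%, beside 8.91%). Oas1a, a synthetase gene with near-identical copies, fell by 1.83 ± 0.24, the lectin gene Lgals9 by 1.65 ± 0.10, and Phf11d by 1.57 ± 0.19, while Slfn2, a regulator of lymphocyte quiescence, rose by 2.30 ± 0.10 (adjusted p = 4.08e-06). Against VE, the nuclease gene Isg20 fell by 1.12 ± 0.16 (adjusted p = 0.00311) and Ube2l6, the ISG15-conjugating enzyme, by 0.98 ± 0.11 (adjusted p = 0.00134). Ube2l6, Usp18 and Herc6 are enzymes of the same modifier, and all 3 fell in VE+N minus N, Ube2l6 by 0.92 ± 0.11. Ifi44l, a relative of Ifi44, fell by 1.44 ± 0.17 in VE+N minus N (adjusted p = 0.000738). In VE minus N the largest rises of the lists were those of Slfn2 (2.04), Iigp1 (1.67) and Ifi27l2a (1.47), and the largest falls those of Oas1a (-1.75) and Aim2 (-1.52). Of 7 interferon-inducible GTPases 2 rose and 2 fell in VE+N minus N (28.6% each, beside 10.2% and 8.91% of all genes). Iigp1 differed by 1.59 ± 0.23, Gbp4 by 0.56 ± 0.13, Irgm1 by -0.91 ± 0.12 and Gbp7 by -0.80 ± 0.19. Gbp4 was lost without N replicate 1, N replicate 2 or VE+N replicate 2 and Gbp7 without N replicate 2 or VE+N replicate 1. Antigen presentation genes gave 0 rises and 2 falls of 15 in limma in VE+N minus N (13.3% lower, beside 8.91% of all genes). The falls were those of B2m and Psmb8 at -0.48 and -0.45. B2m was lost without N replicate 1 or N replicate 2, and Psmb8 held only without N replicate 1.

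The response element was present in members called lower in VE+N minus N and in members not called there. It was not found in the windows of Irf1 and Samd9l, which rose. Among the measured members with a promoter window it was found in 7 of 14 called lower in VE+N minus N (50%) and in 4 of 11 others (36.4%). Outside all lists, 568 measured genes held it, of which 7.57% were called lower and 6.51% higher in VE+N minus N, against 8.71% and 10.3% of 14903 genes without it. For VE+N against VE the shares called lower were 7.04% with and 5.65% without it.

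Markers of other cell types moved beside these genes in part. Of 13 leukocyte markers the macrophage lysosomal gene Cd68 fell in VE+N minus N, by 2.88 ± 0.14, and stood in the same order of lines as Rsad2 (8.68, 9.99 and 11.56 in the VE+N-labelled, VE-labelled and N-labelled lines). By limma none of the other 12 was called in any comparison or had an unadjusted p below 0.05 in VE+N minus N. Of these 12, Ptprc, Itgam, Spi1 and Tyrobp lay under the median probe set in each line. Csf1r lay above it on both VE+N-labelled arrays, at 5.15 and 4.98. No other of the 12 did so on both arrays of a line. Summed over the 13 markers, the linear signal ran from 592 to 607 on the arrays labelled VE+N, 1074 to 1354 on those labelled VE and 3201 to 3211 on those labelled N. Cd68 alone made this difference: the other 12 markers summed to 181 to 198 in the VE+N-labelled line, 184 to 189 with the VE label and 186 to 192 with the N label. Of 12 mural cell and fibroblast markers 6 fell in VE+N minus N (50%, beside 8.91% of all genes) and 5 in VE+N minus VE (41.7%, beside 5.84%). In VE minus N 3 rose and 3 fell (25% each, beside 8.46% and 6.99%). The summed signal of these 12 was 312 to 333, 1892 to 2081 and 1046 to 1072 in the same order of lines. Without Col1a1, the brightest, the other 11 summed to 248 to 250, 1071 to 1236 and 965 to 994, so the VE-labelled and N-labelled lines lay closer together. Of the 14 endothelial markers 6 rose (42.9%, beside 10.2% of all genes) and 0 fell in VE+N minus N (limma, with 1 lower at an unadjusted p below 0.05). In VE+N minus VE 6 rose (42.9%, beside 4.29%) and 0 fell (limma, also 0 lower at an unadjusted p below 0.05). In VE minus N 3 rose (21.4%, beside 8.46%) and 2 fell (14.3%, beside 6.99%). The summed signal of these 14 was 30202 to 33446, 23423 to 23665 and 25503 to 25704 in that order. None of the 9 pluripotency markers lay above the median probe set on both arrays of a line, though Dppa3 did on N replicate 1, at 4.96. The part of these markers in the differences above was not tested.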

How the data were processed

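The authors deposited 1 log2 value per probe set and array, which per the submitters' processing notes came from RMA in Partek 6.3. This method subtracts background and brings the arrays to a common scale. The log2 scale was read from the values. The genome build is not given in the sources used here. Of 35556 probe sets 21789 had 1 gene symbol, 12146 none and 1621 several, and symbols were updated through Entrez identifiers (21698) or accessions (3) or kept (88). Where a gene had more than 1 probe set (1001 genes), the brightest on average was kept. Irf1 was the only member with a second probe set, whose values are given.

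Groups came from the sample titles, and no array was left out. Lines were compared with limma 3.58.1 in R 4.3.3, with line means over all 6 arrays, moderated variances and Benjamini-Hochberg adjustment over 19936 genes. Calls needed an adjusted p below 0.05. The value after ± is the SE for a log2 difference, and the SD where so marked. "Rose" and "fell" refer to called genes. No filter on signal was applied. The script was tested on simulated arrays.

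The members and lists were chosen with earlier results of these data known. Members called with a difference over 1 log2 unit are given by array, up to 4 called genes with the largest change in each comparison could be named from each other list, and Ifnar1, Ifnar2, Ifnb1, Cdh2 and Cdh5 are named whatever their result. Genes of the pathway lists without a probe set of their own were not analysed here. Irf3 and the single markers were named after their values were seen. Promoters are shown for such members that hold the response element. Promoter windows are from RefSeq, GRCm38.p6. The alternatives were median centring, repeated quantile normalization, 4 arrays only, a replicate block, a trended robust prior, removal of the dimmest 25% of genes, the mean of probe sets, the methods' analysis of variance and leaving out each array.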

Additional observations from a re-analysis of the deposited data

How the results depend on the processing

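Of 1482 values of single members under the alternatives, 1291 kept direction and call, 131 lost the call, 40 gained one and 20 changed sign, each for a member and comparison that had no call. The cause of the moves was not tested, except that a fit with fewer arrays has fewer degrees of freedom. Median centring and repeated quantile normalization left every count of calls within 1.5 times its value.

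By analysis of variance, the test the methods name, with Benjamini-Hochberg adjustment, the members called higher and lower were 1 and 1 in VE minus N, 1 and 7 in VE+N minus N and 0 and 1 in VE+N minus VE. The other pathway genes were 2 and 6 in VE minus N, 5 and 11 in VE+N minus N, and 0 lower in VE+N minus VE. With the unadjusted p and a fold over 2, as the methods state, the members were 2 and 0, 1 and 10, and 0 and 6, and the other pathway genes 4 and 5, 4 and 9, and 1 lower in VE+N minus VE. Members called lower in VE minus N were 9 with 4 arrays only and 8 with a trended robust prior, which also gave 15 other pathway genes lower in VE+N minus VE.

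With each array left out, members called higher and lower ranged from 2 to 5 and 3 to 9 in VE minus N, 2 to 2 and 12 to 18 in VE+N minus N, and 0 to 0 and 5 to 16 in VE+N minus VE. The other pathway genes ranged from 6 to 10 and 9 to 15, 7 to 13 and 15 to 23, and 1 to 4 and 3 to 10.

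The replicate numbers were not taken to pair the arrays: the differences between replicates correlated across all genes at 0.07 between VE+N and VE, 0.12 between VE+N and N and -0.01 between VE and N, so that not every pair was over 0.1. Across the members alone the values were -0.05, 0.64 and 0.01 in the same order. With the replicate block the members called lower were 20 in VE+N minus N, 14 in VE+N minus VE and 5 in VE minus N.

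No value that changed sign passed the test, and Oas3 passed in VE+N minus VE without VE+N replicate 1 (adjusted p = 0.0395), at the low end of its range. Median centring gave -0.037 for Mx1 in VE minus N and -0.0092 for Stat2 in VE+N minus N, and quantile normalization -0.027 for Parp9 in VE+N minus VE. With arrays left out, VE minus N ranged from -0.026 to 0.048 for Mx1, -0.10 to 0.0086 for Parp9 and -0.00331 to 0.26 for Ifi35. VE+N minus N ranged from -0.052 to 0.39 for Irf7, -0.017 to 0.084 for Stat2, -0.20 to 0.12 for Parp9 and -0.095 to 0.081 for Parp12. VE+N minus VE ranged from -0.28 to 0.17 for Irf7, -0.64 to 0.082 for Oas3, -0.46 to 0.035 for Dhx58, -0.15 to 0.17 for Parp9 and -0.0083 to 0.25 for Ifi35.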
